A study of Mus musculus with 2 samples.

Results

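Hormone receptors and mammary luminal factors were followed in a series that asked how blockade of Hedgehog signalling alters macrophage transcriptomes. The genes were taken by name from the deposited table of reads per gene. They were the steroid hormone receptors Esr1 and Pgr, the prolactin and growth hormone receptors Prlr and Ghr, the transcription factors Foxa1, Gata3 and Elf5, and the signal transducers Stat5a and Stat5b. All 9 were found among the 20003 genes listed. The series held 2 libraries, both labelled RAW 264.7, a mouse macrophage line from a virus-induced tumour. Per the labels, both cultures were grown in medium with 10% serum and received macrophage colony-stimulating factor (M-CSF, 20 ng/mL) and interleukin 4 (IL-4, 10 ng/mL), which drives macrophages to the M2 state. The M2+GANT61 library had GANT61, an inhibitor of the GLI transcription factors, at 10 µM, and the M2+DMSO library had the solvent DMSO, each given 4 h ahead of IL-4. The time with IL-4 stands in the labels both as 15 min and as 24 h. Each group had 1 library, so no test between conditions was possible, no p-value is given, and all intervals cover counting error only.

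The libraries held 57705874 (M2+GANT61) and 61632784 (M2+DMSO) reads in genes. All 10 macrophage markers examined exceeded 10 CPM (counts-per-million of the scaled library) in both libraries. So did 11 of 11 luminal keratin and surface genes, 10 of 10 fibroblast, 8 of 8 endothelial, 8 of 10 adipocyte and 7 of 8 T cell markers, and no marker in these lists was at 0. Transcripts of these other cell types go against the label of a single macrophage line. Table columns carried the treatment in their headers, by which each was assigned, while the numbers in those headers differed from those in the sample titles. The values below are therefore given for the libraries as labelled. In bulk RNA, fewer cells of a type and less RNA per cell cannot be told apart.

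As background, oestrogen and progesterone receptors are nuclear receptors that bind DNA as ligand-activated transcription factors. In the mammary gland they mark the hormone-sensing luminal cells, where FOXA1 opens chromatin for the oestrogen receptor and GATA3 maintains luminal identity. Prolactin and growth hormone bind related class I cytokine receptors, which activate the kinase JAK2 and, through it, STAT5A and STAT5B. ELF5, an ETS factor of alveolar progenitors, acts with STAT5 on the milk protein genes.

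A gene was called higher or lower where its ratio between libraries (M2+GANT61 over M2+DMSO, after scaling) was at least 1.5, or at most the inverse. Its 95% exact interval had to exclude 1 and its mean had to reach 1 CPM. All 9 genes passed the floor of 1 CPM. By this rule, 6 of the 9 were lower in the M2+GANT61 library (Esr1, Prlr, Ghr, Foxa1, Gata3 and Elf5), 0 were higher, and Pgr, Stat5a and Stat5b were neither. Of the 13939 genes that reached this floor, 10.3% were lower and 14.1% higher. At a threshold of 2, Ghr alone of the 9 was lower, where 4.27% of the genes considered were lower and 6.97% higher. The median log2 ratio was -0.76 over the 9 genes and -0.01 over all genes considered. Ratios lay below 1 for 8 of the 9 genes, all but Stat5b, and for 51.0% of all genes considered.

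**Figure D1:**
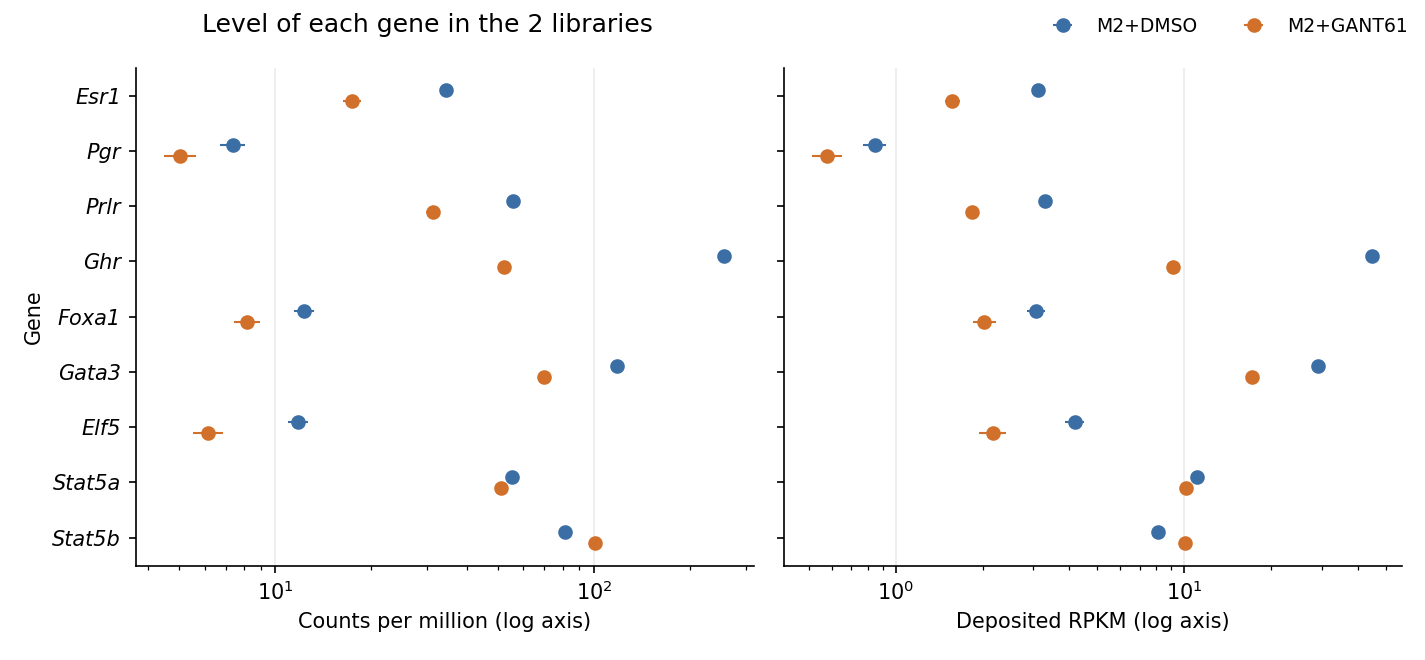
Level of each gene in the M2+DMSO (blue) and M2+GANT61 (orange) libraries, in CPM on the left and deposited RPKM on the right, both on log axes; bars are exact 95% Poisson intervals and cover counting error only. Stat5b alone was higher in the M2+GANT61 library, and Ghr showed the widest gap, from 256 to 52.3 CPM.

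Esr1, the oestrogen receptor alpha gene, had 2144 reads in the M2+DMSO library and 991 in the M2+GANT61 library, or 34.3 and 17.4 CPM, and value pairs below keep this order. The ratio was 0.509 (95% CI 0.472 to 0.549), and 4.51% of the genes considered had a lower one. Esr1 lies at chr10:4611593-5005614 (plus strand, mm10) and its longest coding transcript in GENCODE M21 has 10 exons. Pgr, the progesterone receptor gene and itself an oestrogen receptor target, had 460 and 286 reads, or 7.35 and 5.03 CPM. Its ratio of 0.685 (95% CI 0.589 to 0.795) was below 1 but did not meet the rule of size. Pgr lies at chr9:8899833-8968611 (plus strand) and had the lowest level of the 9 genes in both libraries.

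Prlr, the prolactin receptor gene, had 3484 and 1774 reads, or 55.7 and 31.2 CPM. Its ratio was 0.561 (95% CI 0.529 to 0.594). The gene lies at chr15:10177238-10349180 (plus strand) and encodes long and short receptor forms, which counts per gene do not separate. Ghr, the growth hormone receptor gene at chr15:3317760-3583492 (minus strand), also encodes the circulating binding protein. It had 16026 reads in the M2+DMSO library and 2974 in the M2+GANT61 library, or 256 and 52.3 CPM. Its ratio of 0.204 (95% CI 0.196 to 0.213) was the lowest of the 9, equal to a 4.89-fold (95% CI 4.70 to 5.09) higher level in the M2+DMSO library, and 0.854% of the genes considered had a lower ratio. The Ghr interval did not overlap that of any other member.

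Among the luminal transcription factors, Gata3 was the most abundant, with 7382 and 3962 reads, or 118 and 69.7 CPM. Its ratio was 0.591 (95% CI 0.569 to 0.614). Gata3 lies at chr2:9857078-9890034 (minus strand). Elf5, at chr2:103411688-103450989 (plus strand), had 738 and 350 reads, or 11.8 and 6.16 CPM, a ratio of 0.523 (95% CI 0.459 to 0.594). Foxa1, a gene of 2 exons at chr12:57540628-57546916 (minus strand), had 770 and 464 reads, or 12.3 and 8.16 CPM. Its ratio of 0.664 (95% CI 0.590 to 0.746) lay just inside the threshold of 0.667, and Pgr lay just outside it. The intervals of both held the threshold, so at this depth these 2 genes were not separated by the rule. With the trend in gene model length removed their calls changed places, Foxa1 at 0.682 and Pgr at 0.641.

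**Figure D2:**
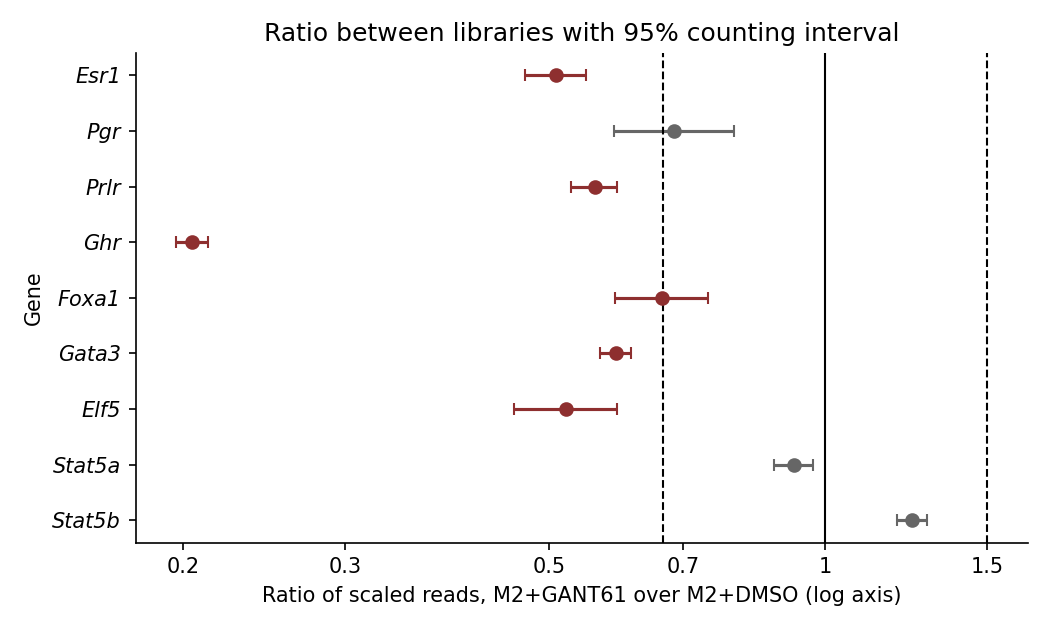
Ratio of scaled reads, M2+GANT61 over M2+DMSO, for each gene on a log axis, with exact 95% counting intervals; the solid line is a ratio of 1, the dashed lines are the thresholds of 1.5 and its inverse, and red marks genes called lower, grey those called neither. Esr1, Elf5, Prlr, Gata3, Foxa1 and Pgr lay between 0.509 and 0.685, Ghr below them at 0.204, and the STAT5 genes on either side of 1.

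The STAT5 genes stood apart from the receptors and luminal factors. Stat5a had 3462 and 2904 reads, or 55.3 and 51.1 CPM, a ratio of 0.924 (95% CI 0.879 to 0.971). Stat5b had 5087 and 5742 reads, or 81.3 and 101 CPM, a ratio of 1.24 (95% CI 1.197 to 1.29). Both intervals excluded 1, in opposite directions, and neither gene reached the threshold. Summed over both genes the ratio was 1.11 (95% CI 1.08 to 1.15), from 8549 to 8646 reads. The genes neighbour each other on chromosome 11, Stat5b at chr11:100780731-100850724 (minus strand) and Stat5a at chr11:100859351-100885169 (plus strand), with 8626 bases between them.

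The STAT5 genes have closely related coding sequences, and how reads that match both were assigned is not given in the sources used here, so the counts of such reads are uncertain. Over 2291 aligned coding bases, 90.8% were identical. Of the 50-base stretches in annotated Stat5b transcripts, 11.0% also occurred in Stat5a transcripts, and 8.21% of those of Stat5a in Stat5b. The longest identical run was 324 bases, at coding positions 571 to 894 of both. The last 60 bases of that run (capitals) and the 30 that follow are shown as an example of a stretch that short reads could match in both genes, chosen for its likeness. It holds a single difference, C895T, from Stat5a to Stat5b (positions counted from the A of the start codon, sequences from the GENCODE M21 transcripts):
Stat5a: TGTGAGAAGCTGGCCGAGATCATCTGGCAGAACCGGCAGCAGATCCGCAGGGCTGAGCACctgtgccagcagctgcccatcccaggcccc
Stat5b: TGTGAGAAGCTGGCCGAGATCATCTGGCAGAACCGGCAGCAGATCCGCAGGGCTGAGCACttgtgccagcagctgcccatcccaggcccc
Annotated exons of Stat5a also overlap exons of Stat3 on the opposite strand, and the strand setting of the counting was not given in the sources used here. For the other 7 genes at most 2.22% of 50-base stretches occurred in transcripts of another gene, the highest share being that of Gata3. Gata3 exons overlap those of 9230102O04Rik on its own strand and Gm13256 on the opposite strand. Prlr exons overlap those of Gm21973 on its own strand.

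Ordered by deposited RPKM, Ghr led in the M2+DMSO library at 45.0 and Gata3 in the M2+GANT61 library at 17.1. RPKM divides each count by a gene model length not given in the sources used here, so comparisons between genes depend on it. In the M2+DMSO library Gata3 followed at 29.1, then Stat5a at 11.1, Stat5b at 8.10 and Elf5 at 4.17. Prlr at 3.29, Esr1 at 3.10 and Foxa1 at 3.07 came next, and their neighbouring Poisson intervals overlapped. Pgr was last at 0.846. In the M2+GANT61 library Stat5a at 10.2 and Stat5b at 10.0 overlapped, and Ghr came after them at 9.15. Elf5 at 2.17, Foxa1 at 2.03 and Prlr at 1.84 followed, each overlapping its neighbour, then Esr1 at 1.57 and Pgr at 0.577. The RPKM of Ghr was 13.7 times that of Prlr in the M2+DMSO library and 4.98 times in the M2+GANT61 library. The corresponding quotient of Gata3 to Foxa1 was 9.49 and 8.45.

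In the order of ratios, Ghr was separated from Esr1, the next gene. From Esr1 through Elf5, Prlr, Gata3, Foxa1 and Pgr, each interval overlapped that of its neighbour. Stat5a and Stat5b were separated from Pgr and from each other. Among all genes considered, 39.9% had a lower ratio than Stat5a and 75.2% a lower one than Stat5b.

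**Figure D3:**
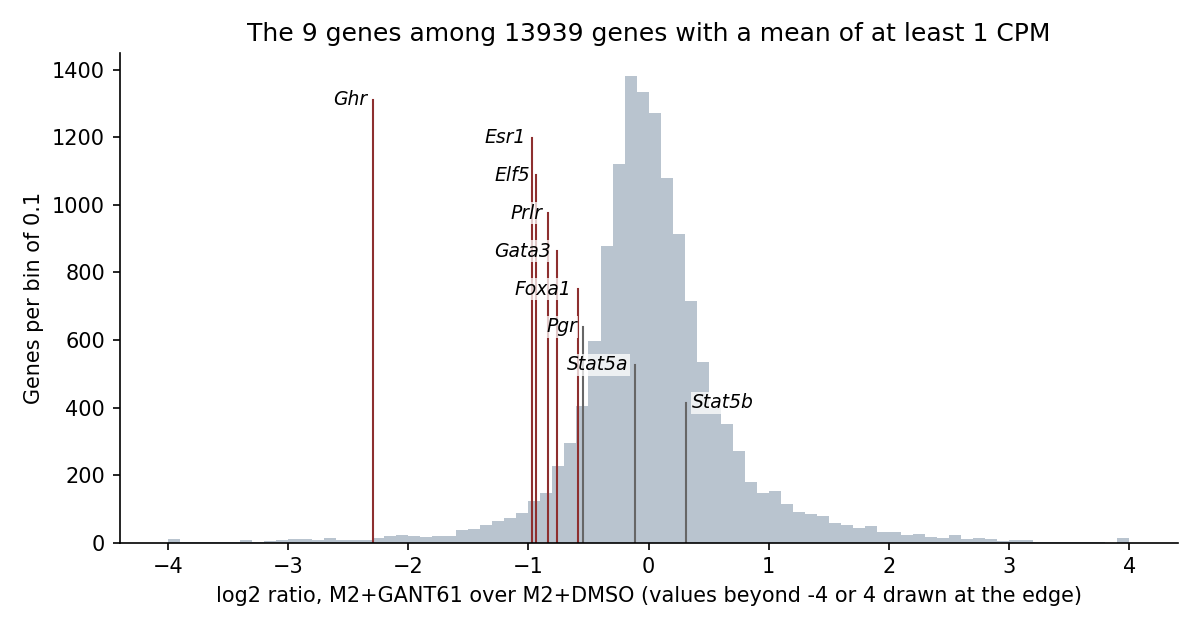
Log2 ratio of M2+GANT61 over M2+DMSO for the 13939 genes at or above 1 CPM on average (grey bars, number of genes per bin of 0.1), with the 9 genes marked by lines whose height only separates the labels. Ghr lay in the lower tail, the 5 other genes called lower (red) and Pgr on the lower flank, and the STAT5 genes near the centre.

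Promoter windows of 250 bases upstream of annotated starts were read from RefSeq (GRCm38.p6) for all 9 genes, in 16 windows. They were searched on both strands for short motifs of the factors these genes encode, and for the GLI motif because GANT61 acts on GLI. The STAT motif TTCNNNGAA occurred in 2 of the 16 windows (Esr1 and Prlr), and in 7.02% of all 32851 windows. The forkhead motif, TGTTTAC or TGTTTGC, occurred in 4 of the 16 (Esr1, Foxa1, Ghr and Prlr) and in 7.29% of all windows. The GATA motif (AGATAA or AGATAG or TGATAA or TGATAG) occurred in 3 of the 16 (Elf5, Esr1 and Prlr) and in 26.5% of all. The ELF motif, AGGAAGT or AGGAAAT, occurred in 3 of the 16 (Elf5, Stat5a and Stat5b) and in 13.2% of all. The nuclear receptor core AGGTCA occurred in 3 of the 16, all of Stat5a or Stat5b, and in 14.0% of all. The full oestrogen response element and the GLI motif GACCACCCA had no match in the 16 windows, and occurred in 0.0639% and 0.225% of all. The core is contained in the full element, STAT and ELF matches can overlap, and no matches overlapped in these windows.

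Windows of the hormone receptors Esr1, Prlr and Ghr are shown because they hold such matches (capitals) outside annotated exons. The Esr1 and Prlr windows carry the same STAT match, TTCTAGGAA, at 188 and 110 bases before the start. The Prlr window also has a forkhead and a GATA match, and the Ghr window a forkhead match. The windows are chr10:4709908-4710154 (plus strand, with 3 exonic bases left off), chr15:10223656-10223905 (plus strand) and chr15:3581843-3582092 (minus strand), all read 5′ to 3′ on the gene's strand. A match describes letters and was not tested for binding.
Esr1: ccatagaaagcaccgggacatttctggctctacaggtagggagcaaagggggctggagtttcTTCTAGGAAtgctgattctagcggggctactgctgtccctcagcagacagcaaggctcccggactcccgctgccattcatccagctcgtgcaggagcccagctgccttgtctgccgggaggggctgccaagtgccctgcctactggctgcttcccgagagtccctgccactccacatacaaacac
Prlr: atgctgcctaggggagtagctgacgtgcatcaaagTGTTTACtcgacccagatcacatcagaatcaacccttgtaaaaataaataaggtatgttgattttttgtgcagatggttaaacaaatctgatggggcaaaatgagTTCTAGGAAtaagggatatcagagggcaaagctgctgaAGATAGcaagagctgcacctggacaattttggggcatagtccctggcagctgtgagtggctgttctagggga
Ghr: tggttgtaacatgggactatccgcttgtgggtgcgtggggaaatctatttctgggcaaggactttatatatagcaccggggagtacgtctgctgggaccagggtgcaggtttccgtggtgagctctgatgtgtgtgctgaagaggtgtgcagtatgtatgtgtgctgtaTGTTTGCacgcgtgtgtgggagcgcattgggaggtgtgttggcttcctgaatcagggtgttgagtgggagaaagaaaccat

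The other genes of these pathways were taken from lists written with earlier results of these data known. Of 15 other nuclear hormone receptors, 12 had a mean of at least 1 CPM, of which 1 was lower, 11 were neither and 0 were higher. Their median log2 ratio was -0.28. The lower one was Thra, a thyroid hormone receptor, at 54.5 and 29.1 CPM, a ratio of 0.534 (95% CI 0.503 to 0.566). Esr2, the gene of oestrogen receptor beta, had 9 reads in the M2+DMSO library and 0 in the M2+GANT61 library, where a count of 0 allows up to 0.0528 CPM. Of 11 steroid receptor coregulators, 1 was higher, 10 were neither and 0 were lower (median 0.03). Ncoa3, a coactivator, was the higher one at 1.56 (95% CI 1.498 to 1.62). With the length trend removed it was at 1.46 and no longer called.

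Oestrogen and progesterone receptor targets did not share one direction, and Igfbp4 also stands in the growth hormone and IGF list. Of 8 considered, 2 were lower, 1 was higher and 5 were neither (median -0.14). Cited1, a coregulator found in hormone-sensing luminal cells, was at 13.4 and 3.06 CPM, a ratio of 0.229 (95% CI 0.193 to 0.270). Igfbp4, an IGF-binding protein, had a ratio of 0.609 (95% CI 0.600 to 0.618). Tnfsf11, which encodes RANKL, a paracrine signal downstream of progesterone, was higher, with 200 and 553 reads, or 3.20 and 9.73 CPM. Its ratio was 3.04 (95% CI 2.59 to 3.60). That of Pgr was 0.685, and a link between these 2 genes was not tested.

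JAK-STAT components and inhibitors, a general list that also serves interleukin and interferon receptors, were mostly neither. Of 20 measured, 2 were higher, 18 were neither and 0 were lower (median 0.22). Socs3, a feedback inhibitor, had a ratio of 2.41 (95% CI 2.33 to 2.49) and Stat4, which acts below interleukin receptors, of 1.51 (95% CI 1.38 to 1.66). With total scaling Stat4 was at 1.47 and no longer called. In the growth hormone and IGF axis, 6 of 14 genes were lower, 8 were neither and 0 were higher (median -0.33). Of all genes considered, 10.3% were lower. Ratios lay below 1 for 9 of the 14, and for 51.0% of all genes considered. Of the lower genes, Igf2, Igfals and Igfbp2 averaged under 5 CPM, and with that floor 3 were lower. Igf1, called neither, was at 88.4 and 112 CPM, a ratio of 1.27 (95% CI 1.23 to 1.32). Igfals, which encodes a subunit of the circulating IGF complex, had 335 and 74 reads, a ratio of 0.245 (95% CI 0.187 to 0.314). Igfbp2 had a ratio of 0.443 (95% CI 0.357 to 0.544). Irs1, an adaptor of insulin and IGF receptors, had a ratio of 0.515 (95% CI 0.486 to 0.546).

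No other class I cytokine receptor considered was called lower, where 10.3% of all genes considered were lower and 14.1% higher. In a list of this size, a count of 0 lower is near that share. Of 13 considered, 6 were higher, 7 were neither and 0 were lower (median 0.52). Csf3r, the G-CSF receptor, reached 27.9 and 112 CPM with a ratio of 4.01 (95% CI 3.80 to 4.23). Il4ra, which binds IL-4, stood at 3.77 (95% CI 3.68 to 3.86) and Csf2rb, a shared beta chain, at 3.05 (95% CI 2.96 to 3.15). Beside them, macrophage markers had 10 of 10 higher, with a summed level of 3093 CPM in the M2+DMSO library and 7844 CPM in the M2+GANT61 library. Of these, Mrc1, the mannose receptor gene and a marker of the M2 state, had a ratio of 5.54 (95% CI 5.46 to 5.62), Cd68 of 3.36 (95% CI 3.26 to 3.47) and Itgam, an integrin chain, of 3.21 (95% CI 3.12 to 3.31). Their part in the receptor values was not tested.

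Paralogs of the luminal factors did not share one direction. Of 9 GATA, FOXA and ELF paralogs considered, 3 were higher, 1 was lower and 5 were neither (median 0.28). Gata1 had 72 and 155 reads, a ratio of 2.36 (95% CI 1.78 to 3.18), and Gata2 had a ratio of 1.58 (95% CI 1.36 to 1.84). Among the epithelial ETS factors, Ehf had a ratio of 1.99 (95% CI 1.85 to 2.15) and Elf3 of 0.622 (95% CI 0.597 to 0.647). Elf5 was at 0.523.

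Milk protein genes, which STAT5 and ELF5 act on, were lower in 7 of 8 considered, neither in 1 and higher in 0 (median -1.89). Csn1s2a, a casein, had 3704 reads in the M2+DMSO library and 3 in the M2+GANT61 library, a ratio of 0.00104 (95% CI 0.000184 to 0.00261). Csn1s1 had 3736 and 35 reads, a ratio of 0.0105 (95% CI 0.00717 to 0.0144), and Glycam1 had 1881 and 68 reads, a ratio of 0.0401 (95% CI 0.0308 to 0.0507). These ratios were further from 1 than those of Elf5, Prlr and Stat5a. Csn2, with 7303 and 2734 reads, was at 0.412 (95% CI 0.394 to 0.431). Csn3, with 5512 and 3294 reads, was at 0.658 (95% CI 0.630 to 0.687), nearer 1 than Elf5 and Prlr. The whole list summed to 665 and 503 CPM, of which Xdh, an oxidase expressed in many tissues, made up 292 and 390 CPM.

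**Figure D4:**
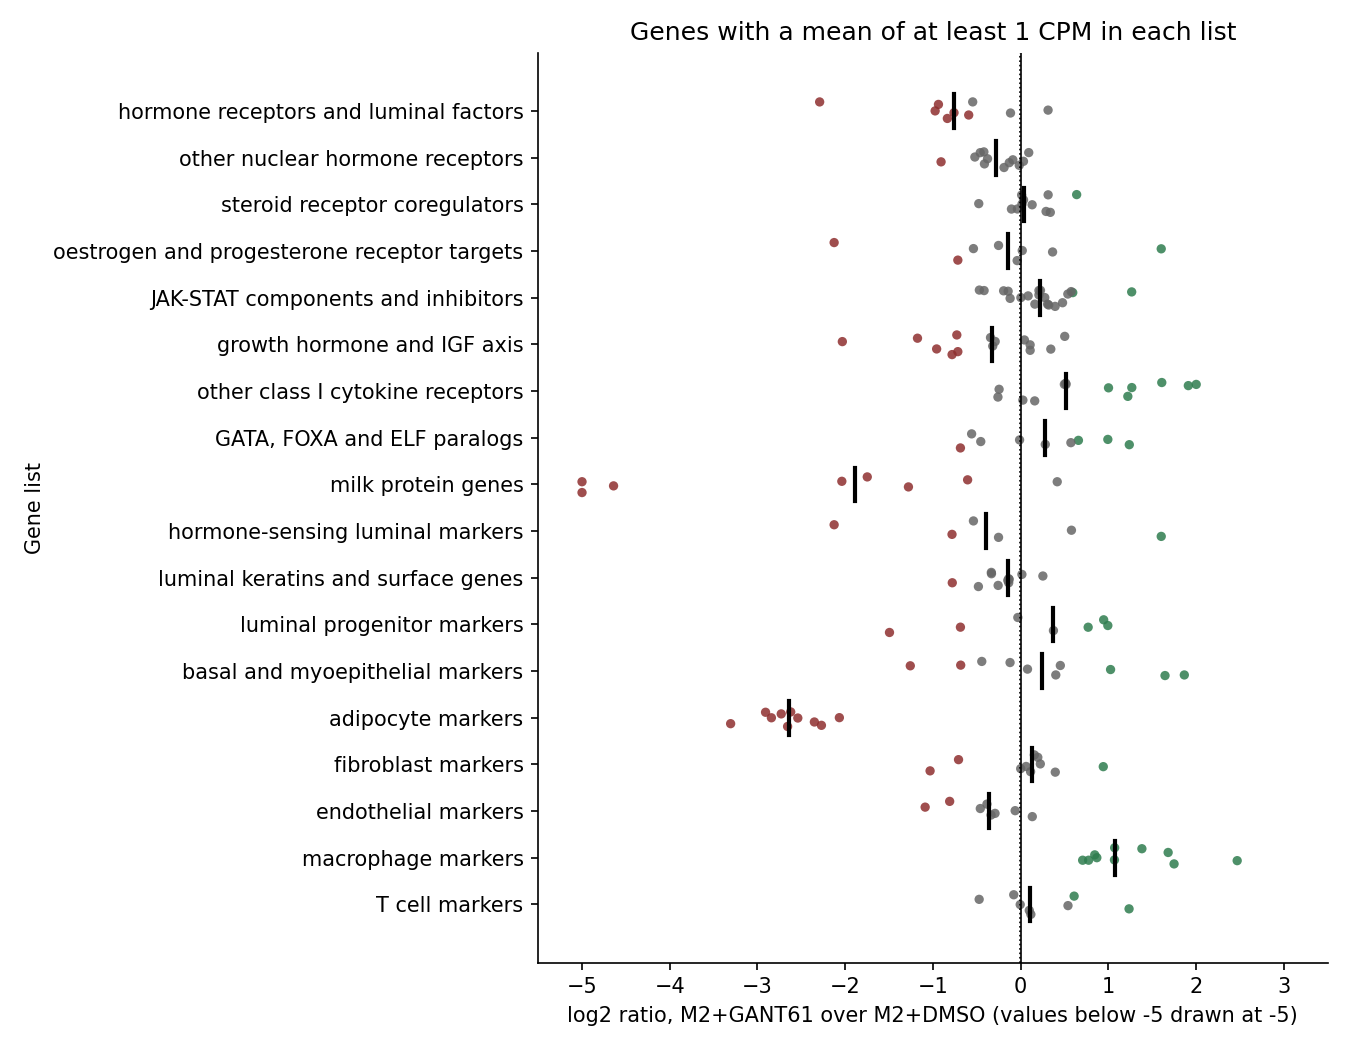
Log2 ratio of M2+GANT61 over M2+DMSO for the genes of each list at or above 1 CPM on average; each point is a gene (red lower, green higher, grey neither), black bars are list medians and the dotted line is the median of all genes considered, with values under -5 drawn at -5. Adipocyte markers had a median of -2.64, milk protein genes of -1.89, the receptors and luminal factors of -0.76 and macrophage markers of 1.07.

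Marker genes of the cell types that express these receptors gave different values. Luminal keratin and surface genes were lower in 1 of 11, neither in 10 and higher in 0 (median -0.15). Their summed level was 4180 CPM in the M2+DMSO library and 3300.5 CPM in the M2+GANT61 library, a ratio of 0.790. Krt18, a keratin of simple epithelium, had a ratio of 0.583 (95% CI 0.575 to 0.591). Hormone-sensing luminal markers were lower in 2 of 6 considered, higher in 1 and neither in 3 (median -0.39). Of these 6, 4 (Areg, Cited1, Tnfsf11 and Wnt4) are also among the 8 receptor targets considered, so the counts of these lists are not separate. Prom1 had a ratio of 0.582 (95% CI 0.502 to 0.672). Per 1000 CPM of the luminal keratin and surface genes, Esr1 was at 8.20 and 5.28, Gata3 at 28.2 and 21.1, Elf5 at 2.82 and 1.87, and Foxa1 at 2.94 and 2.47. The ratios of these quantities were 0.645, 0.749, 0.662 and 0.841, against 0.509, 0.591, 0.523 and 0.664 before division. On the same scale the ratio was 0.867 for Pgr, 0.710 for Prlr and 0.259 for Ghr. That of Stat5a was 1.17, on the other side of 1 from its undivided ratio, and that of Stat5b was 1.57. The divisor is a sum, which abundant genes weigh on most, and its ratio was 0.790. The median ratio of the list was 0.904, so the divided ratios depend on the use of the sum. Per 1000 CPM of macrophage markers, every member had a ratio below 1, from 0.0806 for Ghr to 0.490 for Stat5b. Stat5a was at 0.364 on that scale.

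Adipocyte markers had 10 of 10 lower and a median of -2.64, with a summed level of 6274 CPM in the M2+DMSO library and 986 CPM in the M2+GANT61 library. Lep, the leptin gene, had a ratio of 0.101 (95% CI 0.0890 to 0.114), Car3 of 0.133 (95% CI 0.131 to 0.135) and Plin1, a lipid droplet protein, of 0.140 (95% CI 0.132 to 0.148). Per 1000 CPM of adipocyte markers, Ghr, which adipocytes also express, was at 40.8 in the M2+DMSO library and 53.1 in the M2+GANT61 library, a ratio of 1.30. The same quantity had ratios from 3.24 for Esr1 to 7.91 for Stat5b among the 8 other genes. Such division multiplies the ratio of every gene by the same factor, so the order of the genes was that of their undivided ratios. Fibroblast markers, of which 2 of 10 were lower and 1 was higher (median 0.14), summed to 12688 and 15794 CPM. Dpt at 0.489 (95% CI 0.475 to 0.504) and Postn at 0.613 (95% CI 0.606 to 0.619), both matrix protein genes, were lower, and Fn1, the fibronectin gene, was higher at 1.92 (95% CI 1.91 to 1.93). Endothelial markers, of which 2 of 8 were lower and 0 were higher (median -0.36), summed to 620 and 532 CPM. The lower ones were Cldn5, a tight junction protein gene, at 0.471 (95% CI 0.441 to 0.502) and Tek, the angiopoietin receptor gene, at 0.571 (95% CI 0.529 to 0.616). The part of these cell types in the receptor values was not tested.

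The genes with the most similar values were sought among 156 other list genes averaging 5 CPM or more, by the absolute difference of log2 ratios over the 2 libraries. Nearest to Ghr were Lipe and Cfd, both adipocyte markers, at differences of 0.02 and 0.06. Nearest to Gata3 were Krt18 and Prom1, both at 0.02, and nearest to Esr1 were Irs1 at 0.02 and Dpt at 0.06. Prlr lay nearest to Tek at 0.03 and Prom1 at 0.05, Elf5 to Irs1 at 0.02 and Thra at 0.03, and Foxa1 to Csn3 at 0.01 and Areg at 0.05. With 2 libraries, such likeness describes a single ratio. The pool also limits which genes can be nearest, as the lists were written with earlier results known. All 10 adipocyte markers had log2 ratios from -3.31 to -2.07, a range that holds that of Ghr at -2.29. Genes outside the lists were not compared.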

How the data were processed

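Per gene, the authors deposited estimated counts without normalization, with 29.2% (M2+GANT61) and 29.5% (M2+DMSO) of values not whole. They also deposited RPKM values, in which each count is divided by gene model length and a library total. Each table had 1 column per library. The submitters' processing notes name cutadapt, HISAT2, Partek, SAMtools and STAR, with builds hg19 and mm10. What each did, its version, the counter, the annotation and the strandedness are not given in the sources used here.

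Counts were rounded and scaled by TMM in edgeR 4.0.16 (R 4.3.3), and CPM refer to these scaled totals. Ratios used a prior count of 0.5 and exact Clopper-Pearson 95% intervals (scipy 1.17.1). Reads carry no molecular identifiers, so intervals cover counting error only. A count of 0 was taken to allow 3 counts. The rule of size was tried on counts simulated with Poisson error alone, with 200 genes set to differ 2-fold. The simulation held no variation between replicate libraries, so it cannot show how the rule fares with such variation. Named were all 9 genes and, of each of 17 other lists, up to 3 called genes per direction with the largest log2 ratios, or where none was called the up to 2 most abundant, plus for each called member the 2 list genes averaging 5 CPM or more with the nearest log2 ratio. Esr2, Xdh, Igf1 and Csn2 fall outside this rule and were picked with their values in view. The members and lists were chosen with earlier results of these data known. Of the 180 distinct genes in the other lists, 1, Gata5, was not analysed here. Alternatives were size factors of DESeq2 1.42.0, total scaling, unrounded counts, RPKM ratios, removal of the length trend in 20 bins, a prior count of 5, other fold thresholds and other floors.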

Additional observations from a re-analysis of the deposited data

How the results depend on the processing

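With a fold threshold of 2, 1 of the 9 genes (Ghr) was lower. All genes considered then gave 972 higher and 595 lower (11.2% called), and the distinct genes of the other lists 19 and 23, against 31 and 35 at 1.5. With a looser threshold, 0.32 on the log2 scale, these were 3347 and 2993 (45.5%), and 50 and 55. Removing the length trend moved Esr1 to 0.465, Prlr to 0.513 and Stat5b to 1.16. Pgr was called lower with total scaling, at 0.664, with the length trend removed, at 0.641, and with the looser threshold. Foxa1 was called neither with the length trend removed. Among the other lists, total scaling ended the calls of Stat4 and Cd5, and removing the length trend ended those of Ncoa3 and Csn3 (0.696). A floor of 5 CPM left out Igf2, Igfals, Igfbp2, Gata1 and Lalba. No alternative moved a ratio of the 9 genes across 1. Among the alternatives that change the ratios, not the thresholds or floors, the median over the genes considered moved by at most 0.04 (log2). No paired analysis was possible because each group had 1 library, and no library could be left out for the same reason. The depth separates ratios such as those of Ghr and Esr1, but not those of Foxa1 and Pgr.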

Other observations

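Basal and luminal progenitor markers, which belong to mammary epithelial cells that are mostly low in hormone receptors, were higher or lower gene by gene. Of 10 basal and myoepithelial markers, 3 were higher, 2 were lower and 5 were neither (median log2 ratio 0.24). Krt17 had a ratio of 3.65 (95% CI 3.46 to 3.85), Krt5, a basal keratin, of 3.13 (95% CI 3.04 to 3.22) and Trp63, a basal transcription factor, of 2.04 (95% CI 1.91 to 2.17). Oxtr, the oxytocin receptor of myoepithelial cells, had 622 and 236 reads, a ratio of 0.418 (95% CI 0.358 to 0.486), and Cnn1, a contractile protein, of 0.623 (95% CI 0.546 to 0.710). Of 7 luminal progenitor markers, 3 were higher, 2 were lower and 2 were neither (median 0.38), with Ehf and Elf3 also counted among the paralogs above. Aldh1a3, a retinoic acid synthesising enzyme, had a ratio of 1.93 (95% CI 1.78 to 2.10) and Cd14, also abundant in macrophages, of 1.71 (95% CI 1.65 to 1.77). Hey1, a Notch target, had a ratio of 0.355 (95% CI 0.310 to 0.404).

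T cell markers were higher in 2 of 8, neither in 6 and lower in 0 (median 0.11). Cd4, also found on macrophages, had a ratio of 2.36 (95% CI 2.19 to 2.54) and Cd5 of 1.53 (95% CI 1.35 to 1.73). With total scaling Cd5 was at 1.48 and no longer called. Gata3, which T cells also express, was at 0.591 beside them.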
